A study of Mus musculus with 2 samples.

Results

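The genes described here code for the respiratory chain and ATP synthase of the mitochondrion, and were chosen by symbol: mitochondrial-encoded genes (mt-), the Nduf families, Sdha to Sdhd, and the Uqcr, Cox4 to Cox8, Atp5 and Cycs genes. Of 19059 genes in the files, 105 matched, 13 of them encoded by the mitochondrial genome and 92 by nuclear chromosomes. Hippocampi of aged C57BL/6 mice were studied. Of the 2 libraries, 1 was pooled from 4 control mice and 1 from 4 mice that received tomatidine, a small molecule from tomato. The study used both sexes, and the sexes of the pooled mice are not given. Treatment began at 21 months of age and lasted 3 months, with tomatidine at 0.05% of the chow and plain chow for controls. No allele or transgene is named for either group. Cells were fixed, and unique molecular identifiers (UMIs), tags that mark single captured molecules, were counted for probes that bind each transcript. Each value below is a gene's UMIs summed over a cell class in 1 library, scaled to 1000000 UMIs of that class and library (CPM). Since each group is a single pool, the groups cannot be tested against each other, no difference has a replicate check, and the 95% intervals cover counting error only.

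Complexes I to IV carry electrons from NADH and succinate to oxygen, with cytochrome c as the mobile carrier between complexes III and IV, and ATP synthase (complex V) uses the proton gradient they build. The mitochondrial genome supplies the hydrophobic core subunits of complexes I, III, IV and V, while every subunit of complex II and most others are made in the cytosol from nuclear genes and imported. Neurons are known for a high demand for oxidative phosphorylation, above all fast-spiking interneurons, whereas astrocytes are known for a larger part of glycolysis.

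The 92 nuclear members comprised 37 subunits of complex I, 8 assembly factors of complex I (the Ndufaf genes), 4 subunits of complex II, 8 of complex III, 20 of complex IV with their isoforms, 14 of complex V, and Cycs, which codes for cytochrome c. The 13 mitochondrial members comprised 7 subunits of complex I, 1 of complex III, 3 of complex IV and 2 of complex V. Atp5g1, Atp5g2 and Atp5h are not analysed here. Cox8c, a testis isoform of subunit 8, had 2 UMIs over all cells, and every other member had more than the minimum of 100 used for ratios. Among subunits, the most UMIs of each set fell to Ndufa13 (complex I), Sdha (II), Uqcrc1 (III), Cox5b (IV) and Atp5b (V) in the nucleus and to mt-Nd1, mt-Cytb, mt-Co2 and mt-Atp6 in the mitochondrial genome. The order says which probes gave the most counts and is no comparison of levels between genes, since capture differs between probes. Nuclear members lay on 19 chromosomes, with 9 of them on chromosome 7 and 8 on chromosome 2.

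Promoters are shown because nuclear members are known to share regulation by nuclear respiratory factor 1 (NRF1), whose palindromic site of 10 letters stands in capitals in the windows below. RefSeq promoters of GRCm38.p6, from 250 bases before each start, were matched by symbol for 73 of the 92 nuclear members and searched on both strands. The NRF1 letters were found in 4 of the 73 (5.48%) and in 0.877% of 27025 genes. They lie at chr5:108434425-108434464 (minus strand) before Atp5k, chr5:115349096-115349135 (minus strand) before Cox6a1, chr17:56717687-56717726 (plus strand) before Ndufa11 and chr4:24897955-24897994 (plus strand) before Ndufaf4. The windows below run 5′ to 3′ with the NRF1 letters in capitals.
Atp5k: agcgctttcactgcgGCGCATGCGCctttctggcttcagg
Cox6a1: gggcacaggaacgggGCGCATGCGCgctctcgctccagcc
Ndufa11: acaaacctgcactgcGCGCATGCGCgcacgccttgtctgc
Ndufaf4: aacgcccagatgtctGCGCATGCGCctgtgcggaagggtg
The letters CCGGAAGT of an ETS site, the class bound by GABPA, were in 2.74% of member promoters and 3.23% of all genes, the hypoxia response core ACGTG in 17.8% and 18.5%, and CCAAT in 45.2% and 37.5%. A match of letters is a description of the sequence and not of binding.

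Another set is shown for 3 complex IV isoforms whose highest control level was in choroid plexus epithelial-like cells, Cox8b at chr7:140900447-140900546 (minus strand), Cox6b2 at chr7:4753095-4753194 (minus strand) and Cox7a1 at chr7:30184071-30184170 (plus strand). Each is the last 100 bases before the start. Capitals mark the E-box letters CAGCTG in Cox8b, and CCAAT on the other strand (ATTGG) in Cox6b2 and Cox7a1.
Cox8b: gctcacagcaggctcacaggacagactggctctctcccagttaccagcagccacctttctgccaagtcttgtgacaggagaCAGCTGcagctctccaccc
Cox6b2: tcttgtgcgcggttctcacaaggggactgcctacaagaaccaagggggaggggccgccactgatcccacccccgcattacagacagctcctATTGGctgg
Cox7a1: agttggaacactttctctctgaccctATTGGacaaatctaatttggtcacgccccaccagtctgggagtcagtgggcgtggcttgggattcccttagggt
CAGCTG, the E-box bound by muscle regulators such as MyoD, was in 8.22% of member promoters and 14.7% of all genes.

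The control library held 279525565 UMIs and the tomatidine library 259059908, and 15115 and 14503 cells were used. The libraries shared 292 cell barcodes. Cells fell into 37 clusters, of which 12 stayed unnamed, and the others gave 14 classes named from marker genes, with 13 holding at least 20 cells in each library. Class names were rebuilt, so each is written as "-like". Markers of the 11 non-neuronal classes were raised 2-fold or more over other cells for all or all but 1 of the list in each. Among neuronal classes this held for 33 of 50 excitatory markers, which include those of single subtypes. It held for 38 of 41 interneuron markers and 8 of 10 thalamic markers. Clusters were named by the same markers, so these counts describe the classes and are no independent check of the names. Classes differ in depth, with medians from 2132 UMIs per cell in choroid plexus epithelial-like cells to 42916 in thalamic neuron-like cells, and thalamic and other non-hippocampal neurons were present, at shares that differ between the libraries. The choroid plexus epithelial-like class had 344 control cells and 33 tomatidine cells. Ttr, its defining transcript, was also higher in the control library in every other class, as in astrocyte-like cells with 946 CPM against 102. The part of free choroid plexus RNA in the values below was not tested.

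Among named classes, the nuclear members together were highest in interneuron-like and thalamic neuron-like cells. Interneuron-like cells (545 control and 506 tomatidine cells) had 18483 CPM with control and 17311 with tomatidine, and thalamic neuron-like cells had 17581 and 15882. Astrocyte-like cells followed with 14195 and 14141 and choroid plexus epithelial-like cells with 14719 and 12744, and excitatory neuron-like cells had 13661 and 12786. At the other end, oligodendrocyte-like cells had 9783 and 10279.8, microglia-like cells 10040.1 and 9916, and border macrophage-like cells 8811 and 8711. The spread over named classes was about 2.10-fold in control and 1.99-fold with tomatidine. Unnamed clusters, outside this order, had 15859 and 16197 CPM together. Among them, the cluster led by Gata3, Sox14 and Lhx5 had 19370 and 18933, above interneuron-like cells. The ranges of the 2 libraries overlapped between interneuron-like and thalamic neuron-like cells, between astrocyte-like and choroid plexus epithelial-like cells, between the latter and excitatory neuron-like cells, between endothelial-like and mural-like cells, and between neighbours from lymphocyte-like to microglia-like cells, so that the order within those runs cannot be told apart.

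The mitochondrial-encoded members had another order and a wider spread. Among named classes, astrocyte-like cells were highest with 18257 CPM in control and 16379 with tomatidine. Excitatory neuron-like cells were lowest with 3208 and 3466. Over these classes the highest exceeded the lowest 5.69-fold in control and 4.73-fold with tomatidine. The ranges of the 2 libraries overlapped between neighbours from astrocyte-like to microglia-like cells and from border macrophage-like to oligodendrocyte precursor-like cells. The order within those runs cannot be told apart. The unnamed cluster led by Tnnt1, Atp2a1 and Synpo2 had 18996 and 15414. Within microglia-like cells, the cluster led by Ctss, Tyrobp and Lag3 had 17597 and 18310. Per 100 nuclear UMIs of these genes, astrocyte-like cells had 129 and 116 mitochondrial-encoded UMIs and lymphocyte-like cells 147 and 134. Microglia-like cells had 103 and 101, oligodendrocyte-like cells 94.3 and 83.5, endothelial-like cells 72.0 and 65.5 and mural-like cells 59.0 and 61.4. Among named classes the neuronal ones were the lowest 3. They had 26.9 and 27.0 in interneuron-like, 23.5 and 27.1 in excitatory neuron-like and 23.1 and 23.2 in thalamic neuron-like cells. Unnamed clusters, outside this order, had 37.3 and 34.0 together. Some were as low, such as the cluster led by Igfn1, Dkkl1 and Sec14l3 with 24.2 and 28.0. The cluster led by Pla2g2f, Ddn and the dentate granule marker Dsp had 64.1 and 78.3. Over all cells the values were 41.4 in both libraries.

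**Figure D1:**
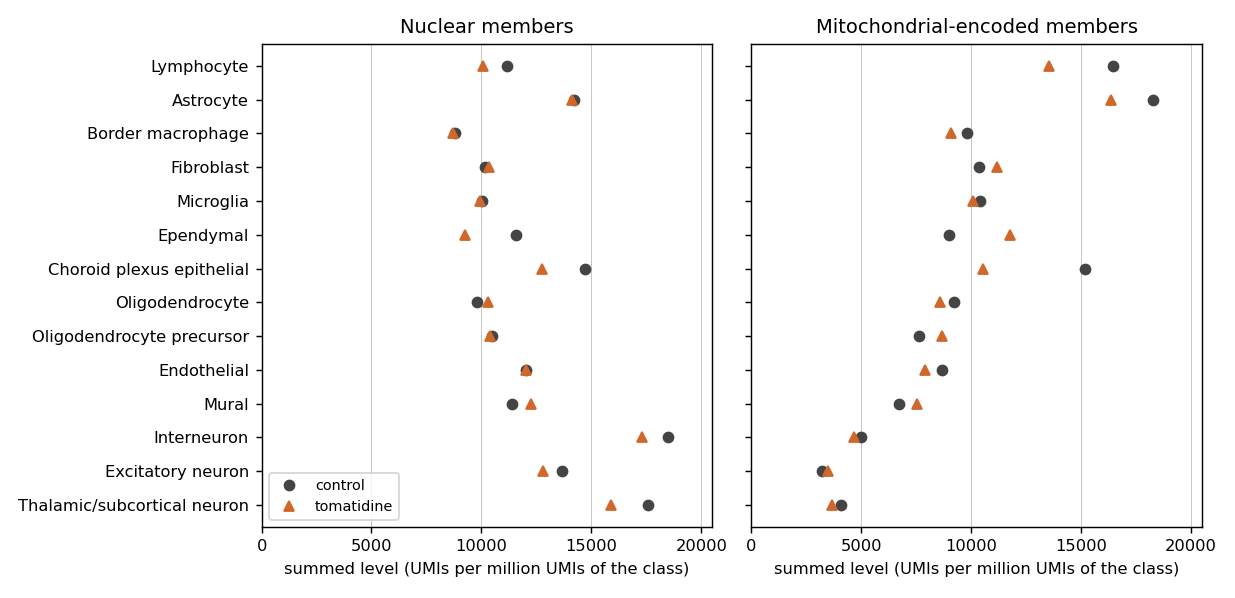
Levels of the respiratory chain genes by cell class, with summed CPM of the 92 nuclear members (left panel) and of the 13 mitochondrial-encoded members (right panel) on the horizontal axes, a circle for the control and a triangle for the tomatidine library. Classes run from the highest to the lowest mitochondrial-encoded to nuclear ratio, and ependymal-like cells (27 and 12) are drawn but compared nowhere. Interneuron-like cells led for nuclear members (18483 and 17311 CPM) and astrocyte-like cells for mitochondrial-encoded members (18257 and 16379 CPM).

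Depth moved with this ratio, and neurons were the deepest cells. Among excitatory neuron-like cells of 1000 to under 3000 UMIs the ratio was 71.6 in control and 82.6 with tomatidine, at 3000 to under 10000 UMIs it was 53.1 and 49.9, at 10000 to under 30000 UMIs 27.2 and 31.0, and from 30000 UMIs 17.5 and 20.4. Astrocyte-like cells went from 156 and 142 in the shallowest of these brackets to 89.2 and 80.1 in the deepest. In the bracket of 3000 to under 10000 UMIs, the 3 neuronal classes still lay between 35.5 and 60.5, below mural-like cells with 69.1 and 65.3 and astrocyte-like cells with 144 and 124. At 1000 to under 3000 UMIs, excitatory neuron-like cells with tomatidine (82.6) were not below border macrophage-like cells in control (82.0). The part of depth in the low ratio of neurons was not tested.

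**Figure D2:**
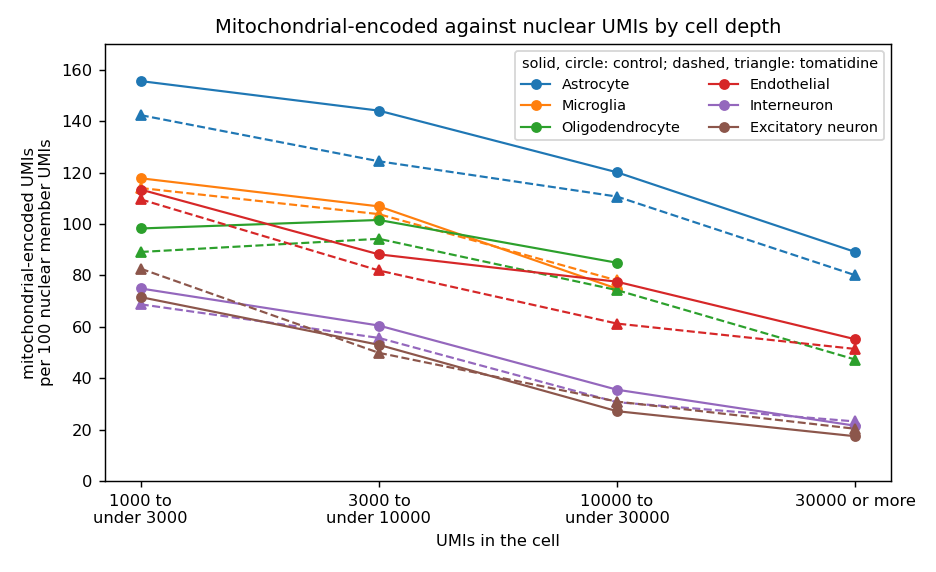
Mitochondrial-encoded UMIs per 100 nuclear respiratory chain UMIs (vertical axis) in cells of 4 depth brackets (UMIs per cell, horizontal axis), for 6 classes, with solid lines for control and dashed lines for tomatidine. The ratio falls with depth in excitatory neuron-like cells from 71.6 and 82.6 to 17.5 and 20.4, and neuronal classes lie below astrocyte-like cells in every bracket.

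Among nuclear members, interneuron-like cells had the highest summed CPM of any named class for complexes I to V and the assembly factors in both libraries. The class that came next differed between complexes. Mitochondrial-encoded subunits, left out of the sums given here, were highest over named classes in astrocyte-like cells for complexes I, III, IV and V in both libraries. For complex V, which holds the catalytic subunit Atp5b, the sum was 3295 CPM in control and 3030.0 with tomatidine, against 1554 and 1634 in oligodendrocyte-like cells. For complex II, the succinate dehydrogenase that also serves the citric acid cycle, it was 1250.3 and 1184, against 696 and 738. Single genes were alike: Uqcrc1, core protein 1 of complex III, had 667 and 614 CPM in interneuron-like cells, 439 and 419 in excitatory neuron-like cells and 297 and 307 in oligodendrocyte-like cells. Atp5b had 648 and 571, 475 and 415, and 284 and 289 in the same classes. Sdha, the flavoprotein of complex II, had 594 and 567 in interneuron-like cells and 322 and 349 in oligodendrocyte-like cells.

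Most nuclear members differed little between classes, and complex IV isoforms differed most. Beside the 10 members with the strongest class pattern, 72 had at least 100 UMIs in their highest class and the other members did not. Of the 72, 45 had their highest mean CPM in interneuron-like cells, 14 in thalamic neuron-like, 8 in choroid plexus epithelial-like, 4 in astrocyte-like and 1 in endothelial-like cells. The highest class of these 72 exceeded the median class by 1.28-fold to 2.15-fold, with a median of 1.71. Against that, Ndufa4l2 exceeded its median class 1053-fold, Cox4i2 212-fold and Cox8b 80.2-fold. Cox6a2 did so 18.04-fold, Cox6b2 7.01-fold and Cox7a1 3.74-fold, and all are subunits or paralogs of subunits of complex IV. The median class had only 0.571 CPM of Ndufa4l2, 1.70 of Cox4i2, 2.48 of Cox8b and 3.05 of Cox6a2. The size of these folds thus depends on levels near 0. The next were Ndufa10, a complex I subunit, at 3.12-fold in thalamic neuron-like cells with 547 and 495 CPM, and Ndufaf5, an assembly factor, and Cox5a, both highest in interneuron-like cells. Ndufa1, a small subunit that anchors complex I, was highest in choroid plexus epithelial-like cells with 409 and 341 CPM.

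The pericyte-associated isoforms Cox4i2 and Ndufa4l2 were found in vessel classes. Cox4i2, an alternative subunit 4 known from lung and from hypoxia, had 300 CPM in control and 421 with tomatidine in mural-like cells (57 and 80 UMIs), or 75.0% and 79.2% of the UMIs of Cox4i1 and Cox4i2 together. In endothelial-like cells it had 91.1 and 118 CPM (315 and 458 UMIs), a share of 43.6% and 50.1%, and in every other class at most 13.02. Ndufa4l2, the hypoxia-inducible paralog of Ndufa4, had 599 and 605 CPM in mural-like cells, a share of 82.6% and 84.6%, and 182 and 167 CPM in endothelial-like cells, a share of 52.8% and 48.8%.

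Endothelial-like cells held UMIs of all 14 mural markers, which summed to 6863 CPM in control and 8406 with tomatidine, against 32586 and 32791 in mural-like cells. In the 50 control and 72 tomatidine endothelial-like cells without any mural marker UMI, both Cox4i2 and Ndufa4l2 had 0 UMIs, which allows up to 20.2 CPM in control and 14.1 with tomatidine. Cox4i1 was still counted there at 141 and 159 CPM, and Cldn5, an endothelial junction gene, at 2168 and 3409. These cells were shallower, with medians of 1737 and 2574 UMIs against 7693 and 5916 in the remaining endothelial-like cells, and the part of mural RNA in the endothelial values was not tested.

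The muscle isoform Cox6a2 was highest in interneuron-like cells, and the muscle isoforms Cox8b and Cox7a1 and the testis isoform Cox6b2 had their highest mean in choroid plexus epithelial-like cells. Cox6a2 had 53.1 CPM in control and 57.0 with tomatidine in interneuron-like cells, a share of 17.6% and 18.2% of Cox6a UMIs, and 1.0 and 1.25 CPM in excitatory neuron-like cells. In interneuron-like cells with at least 5 UMIs of Pvalb, the parvalbumin gene of fast-spiking cells, it had 112 and 129 CPM, a share of 27.7% and 29.2%. In those with fewer Pvalb UMIs it had 20.2 and 22.4 CPM, a share of 8.25% and 8.87%. The Pvalb-rich cells were deeper, with medians of 25014 and 22551 UMIs against 14257 and 14994, and the part of depth in this difference was not tested. Thalamic neuron-like cells followed with 47.4 and 32.4 CPM.

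Cox8b had 249.01 CPM in control and 148 with tomatidine in choroid plexus epithelial-like cells (672 and 63 UMIs), with 48.3% and 42.9% of Cox8a and Cox8b UMIs. Cox6b2 had 90.8 and 79.9 CPM there, a share of 42.2% and 38.2%, and 48.1 and 70.1 CPM in fibroblast-like cells, a share of 38.3% and 42.6%. Cox7a1 had 36.7 and 21.2 CPM in choroid plexus epithelial-like cells, from 99 and 9 UMIs. Over all cells Cox8b had 929 UMIs in control and 188 with tomatidine, beside the fewer choroid plexus epithelial-like cells of that library.

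**Figure D3:**
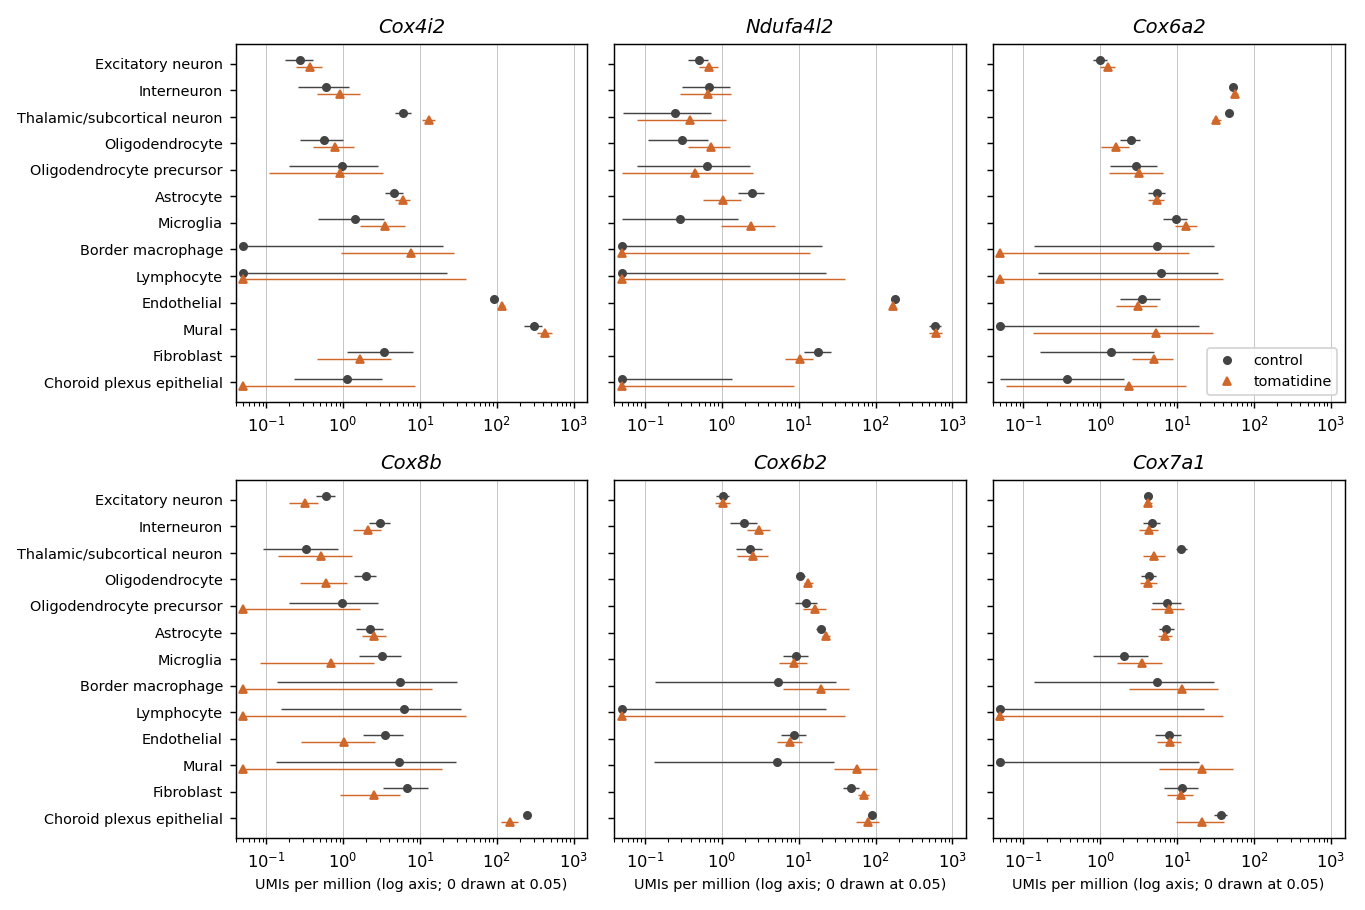
CPM of 6 alternative isoforms (horizontal axes, log scale, 0 drawn at the left edge) in 13 classes, with circles for control, triangles for tomatidine and bars for 95% counting intervals. Cox4i2 (300 and 421 CPM) and Ndufa4l2 (599 and 605 CPM) stand highest in mural-like cells, Cox6a2 in interneuron-like cells (53.1 and 57.0 CPM) and Cox8b in choroid plexus epithelial-like cells (249.01 and 148 CPM).

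For tomatidine against control, a member was counted as higher or lower in a class when its CPM differed by at least 1.2-fold, its counting interval excluded a ratio of 1 and it had at least 100 UMIs over both libraries. In excitatory neuron-like cells (4146 control and 3535 tomatidine cells) nuclear members were slightly lower with tomatidine, while all genes were slightly higher. The median log2 ratio was −0.09 over 88 nuclear members with the minimum, 77 of which were below 0, and 0.04 over all 12908 genes. By complex the medians were −0.10 for 37 complex I subunits, −0.06 for 4 of complex II, −0.13 for 8 of complex III, −0.04 for 16 of complex IV and −0.14 for 14 of complex V, with −0.02 for the 8 assembly factors. Of 101 members with the minimum, mitochondrial ones included, 4 were lower by the rule and 1 higher, against 1.05% and 10.7% of all genes.

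The 4 lower members were Cycs, Uqcrh, Atp5e and Atp5md. Cycs, cytochrome c, had 17.0 CPM in control and 12.9 with tomatidine, a log2 ratio of −0.40 (−0.52 to −0.28). Uqcrh, the hinge protein of complex III, had 8.82 and 7.11 CPM, a ratio of −0.31 (−0.47 to −0.15). Atp5e, the epsilon subunit of ATP synthase, had 88.8 and 72.4 CPM, a ratio of −0.30 (−0.35 to −0.25). Cycs was also lower by the rule in interneuron-like cells, with 25.9 and 19.9 CPM, and in thalamic neuron-like cells, with 23.5 and 17.5 CPM. The higher member was Cox7b2, a testis isoform, from 141 and 153 UMIs.

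The subtypes of excitatory neuron differed in size. In CA1-like cells (698 control and 635 tomatidine cells) the median was −0.17 over 85 nuclear members, 80 of them below 0, beside 0.06 over all genes. Of these, 17 were lower by the rule and 1 was higher, against 3.61% and 19.6% of all genes, and 6 of the 17 were subunits of complex V, 4 of complex I and 3 of complex III. Atp5b had 438 CPM in control and 358 with tomatidine (−0.29, interval −0.34 to −0.24), Uqcrc2 272 and 216 (−0.33, −0.39 to −0.27), and Atp5md, a small subunit of the ATP synthase dimer, 155 and 114 (−0.44, −0.53 to −0.36). Ndufaf6, an assembly factor, was the higher one with 23.6 and 28.6 CPM. With TMM scaling, which sets the all-gene median of CA1-like cells to −0.03, 42 members were lower and none was higher (10.2% and 12.5% of all genes), beside 17 lower and 5 higher with mitochondrial members included under total scaling.

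In dentate granule-like cells the nuclear median was −0.10, with 79 of 86 below 0, 4 lower (0.922% of all genes) and 1 higher (6.1%). In deep layer-like cells it was −0.07, with 4 nuclear members lower (2.6%) and none higher (8.19%), while mt-Nd4 was higher. In CA3-like cells it was −0.05, with 2 lower (3.04%) and none higher (9.79%), the 2 being Cycs and Atp5e. The direction of the nuclear median was the same in the 4 subtypes, which share the 2 libraries and are not independent.

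The mitochondrial-encoded members had medians above 0 in excitatory neuron-like cells. Their summed CPM was 3208 in control and 3466 with tomatidine, with 11 of 13 members above 0 and a median log2 ratio of 0.10. In CA1-like cells the sum was 3258 and 3719, the median 0.16, and mt-Nd4, mt-Nd4l, mt-Atp6 and mt-Co1 were higher by the rule. CA1-like cells had a median of 21190 UMIs in control and 16451 with tomatidine. By depth bracket, the summed mitochondrial CPM of excitatory neuron-like cells was 9793 in control and 10292 with tomatidine at 1000 to under 3000 UMIs, 6071 and 5480.1 at 3000 to under 10000, 3393 and 3587 at 10000 to under 30000, and 2614 and 2929 from 30000. It was thus higher with tomatidine in 3 of the 4 brackets. Restricted to cells of 5000 to 20000 UMIs, a choice made after the data were seen, the mitochondrial median was −0.37 in CA1-like, −0.23 in deep layer-like and −0.03 in all excitatory neuron-like cells, and stayed above 0 at 0.02 in dentate granule-like and 0.03 in CA3-like cells. The part of depth in these values was not tested. Under the same restriction the nuclear median stayed at −0.19 in CA1-like and −0.09 in all excitatory neuron-like cells.

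Interneuron-like and thalamic neuron-like cells had medians below 0 for both genomes. In interneuron-like cells the median was −0.09 over 86 nuclear members, 73 below 0, and −0.08 over the 13 mitochondrial members, beside 0.04 over all genes. Their mitochondrial median was 0.06 with all deposited cells and 0.16 when cells were classed by a marker gate. By the rule 1 nuclear and 1 mitochondrial member were lower, Cycs and mt-Co3 (2.43% of all genes), and none was higher (8.43%). In the CGE-like interneurons among them (200 and 221), the nuclear median was −0.04, with none higher (6.44%) and none lower (3.94%). In thalamic neuron-like cells (278 and 230) the medians were −0.15 over 88 nuclear members and −0.14 over the mitochondrial ones, of which 13 of 13 were below 0, beside 0.04 over all genes. There 12 members were lower, 11 of them nuclear (4.03%), and 1 was higher (13.5%). The muscle isoform Cox6a2 had 47.4 CPM in control and 32.4 with tomatidine (−0.55, interval −0.77 to −0.33) and Cox7a1 11.4 and 5.03 (−1.17, −1.73 to −0.65). Cox4i2 was higher with 6.01 and 13.02 CPM. Thalamic neuron-like cells were deeper in control, with a median of 42916 UMIs against 29087, and the part of depth in these values was not tested beyond the restriction to 5000 to 20000 UMIs, where both medians stayed below 0 at −0.27 and −0.40.

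Oligodendrocyte-like cells (3084 and 2378) had nuclear members above 0, as all genes were. The median was 0.07 over 86 nuclear members, 71 of them above 0, beside 0.06 over all genes. Core subunits of complex I, which bind its flavin and iron-sulfur clusters, had 1033 CPM in control and 1118 with tomatidine, with 7 of 7 above 0. By the rule 4 nuclear members were higher (13.6% of all genes), which is fewer than the share of all genes. These were Ndufaf6 with 8.49 and 12.2 CPM, Ndufb3 with 12.6 and 17.1, Cox6b2 with 10.6 and 13.4 and Cox6b1 with 79.8 and 97.0. The mitochondrial median was −0.08, and mt-Co3 was the only lower member (2.21%). With TMM scaling 2 members were higher and 4 lower (8.92% and 4.68% of all genes), against 4 and 1.

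Oligodendrocyte precursor-like cells (383 and 350) had nuclear members near 0 and higher mitochondrial ones. The nuclear median was −0.00 and the mitochondrial median 0.22, with 11 of 13 above 0. Higher by the rule were 6 members (7.73%), among them mt-Nd2 with 210 and 273 CPM and mt-Nd5 with 333 and 417, and 2 were lower (7.57%), Ndufaf7 and Ndufb1-ps. With TMM scaling 3 were higher and 6 lower (5.62% and 9.36% of all genes). The mitochondrial median was −0.06 when cells were classed by a marker gate. Among complexes, the nuclear median of complex IV was 0.18 and that of complex I −0.05.

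Astrocyte-like cells (1761 and 2052) had nuclear members near 0 beside mitochondrial ones below it. The nuclear median was −0.01, with 40 of 88 above 0, and 2 members were higher (5.03%) and 2 lower (4.83%) with mitochondrial members included. All 13 mitochondrial members were below 0, with a median of −0.14, and their sum was 18257 CPM in control and 16379 with tomatidine. mt-Cytb, the cytochrome b of complex III, had 1580.1 and 1354 CPM (−0.22, interval −0.25 to −0.19), and mt-Atp6, a proton channel subunit of ATP synthase, 3184 and 2878 (−0.15, −0.17 to −0.13). Ndufaf8, an assembly factor, was higher with 49.3 and 61.7 CPM. Median depth was 3754 UMIs in control and 4340 with tomatidine.

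The remaining classes gave between 2 and 6 calls each with total scaling, except for the choroid plexus. In microglia-like cells both medians were −0.03, with 2 higher (8.7%) and 3 lower (4.12%) members, and Ndufab1, the mitochondrial acyl carrier protein, had 55.0 and 73.4 CPM. In endothelial-like cells the nuclear median was −0.00 and the mitochondrial one −0.11, with 2 higher (7.34%) and 3 lower (7.24%), the higher ones being Cox4i2 and Uqcrq. In fibroblast-like cells the medians were 0.01 and 0.09, with 4 higher (5.67%) and 2 lower (8.86%), and with TMM scaling 7 higher and none lower (7.22% and 6.56% of all genes). In microglia-like cells TMM gave 2 higher and 6 lower (5.82% and 6.49%). Mural-like, border macrophage-like and lymphocyte-like cells had at most 8 nuclear members with the minimum, and every call in them was a mitochondrial member. Mural-like cells had 2 higher (10.8%) and none lower (9.36%), and border macrophage-like cells none higher (10.4%) and 3 lower (14.1%). Lymphocyte-like cells had none higher (7.87%) and 6 lower (15.4%). Mitochondrial medians were 0.28 in mural-like, −0.01 in border macrophage-like and −0.35 in lymphocyte-like cells. Few members had the minimum in these classes, so a small count there need not be a small share.

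Choroid plexus epithelial-like cells had the widest differences, over 344 control and 33 tomatidine cells. The nuclear median was −0.24 and the mitochondrial one −0.51, beside −0.06 over all genes, and 25 members were lower (8.35%) and none higher (5.36%). mt-Nd2 had 609 CPM in control and 292 with tomatidine (−1.06, interval −1.34 to −0.80), mt-Co3 885 and 435, and mt-Co1 1342 and 1232. Cox8b, the muscle isoform, had a ratio of −0.75 (−1.15 to −0.38). Median depth was 3662 UMIs in control and 2132 with tomatidine. The mean went the other way, with 115 nuclear member UMIs per cell in control and 164 with tomatidine. The part of depth in these values was not tested.

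**Figure D4:**
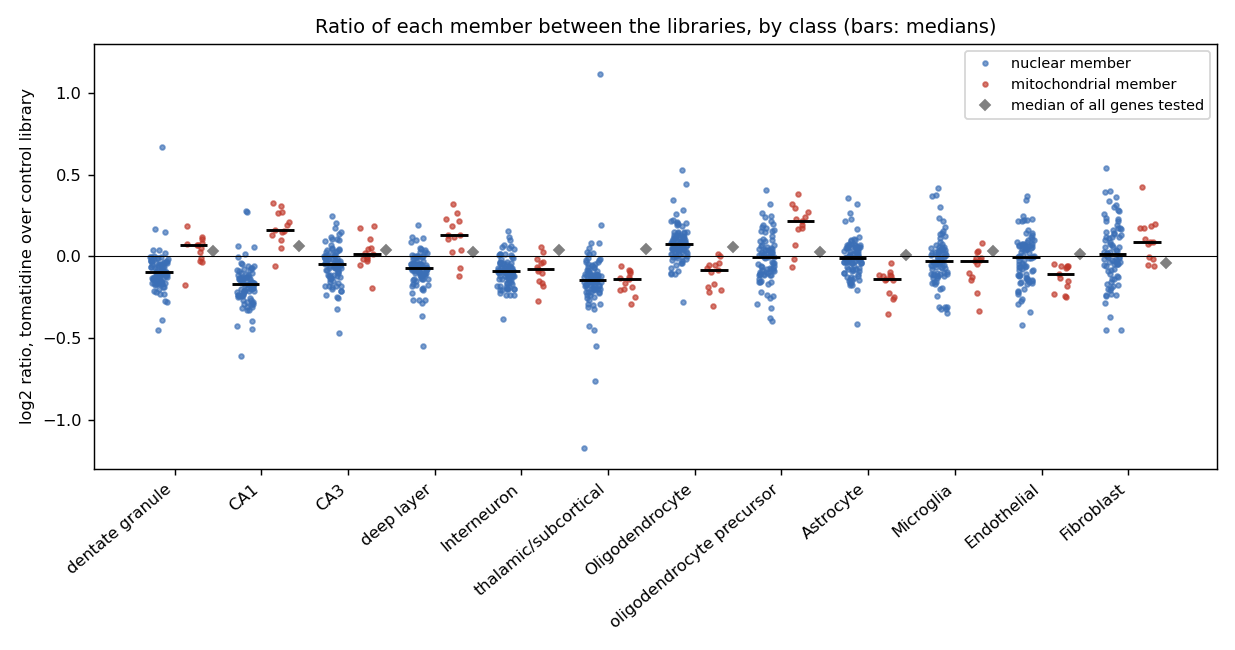
Log2 ratio of tomatidine over control (vertical axis) of each member with at least 100 UMIs in 12 classes and neuronal subtypes, with bars at the medians of nuclear and mitochondrial members and a diamond at the median of all genes. Nuclear medians lie below 0 in CA1-like (−0.17), interneuron-like (−0.09) and thalamic neuron-like cells (−0.15) and above 0 in oligodendrocyte-like cells (0.07).

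The single mitochondrial transcripts did not keep their proportions between the libraries. mt-Co3, the third subunit of cytochrome c oxidase (chrM:8607-9390, GRCm38), was below the other 12 mitochondrial members in 13 of 13 classes, with a counting interval below 0 in 11 and a median log2 ratio against them of −0.22. It made 5.24% to 6.41% of mitochondrial-encoded UMIs over the control classes and 4.14% to 4.98% over the tomatidine classes, so the ranges did not overlap. Over all cells it had 326 CPM in control and 280.0 with tomatidine (−0.22, interval −0.24 to −0.20).

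mt-Co1, mt-Atp6 and mt-Nd4 were above the other mitochondrial members in 7 classes each by the interval, and mt-Atp8 was below in 7. Over all cells mt-Co1 had 630.3 and 669 CPM, mt-Nd4 201 and 217, mt-Atp8 507 and 473, and mt-Nd3 134 and 124. mt-Nd1 and mt-Co2 stayed within 0.02 of 0 on the log2 scale, with 603 and 610.3 CPM and 1130.1 and 1134. mt-Nd2, mt-Nd4l, mt-Nd5, mt-Nd6 and mt-Cytb had log2 ratios over all cells of 0.01, 0.05, 0.04, −0.08 and −0.05. mt-Atp8 and mt-Atp6 are made as 1 transcript, and mt-Co3 is cut from the same precursor, yet they moved apart here. All classes come from the same 2 libraries, so 13 classes are not 13 observations, and whether the difference lies in the mice, the pools or the probe counting of 1 library cannot be told apart.

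**Figure D5:**
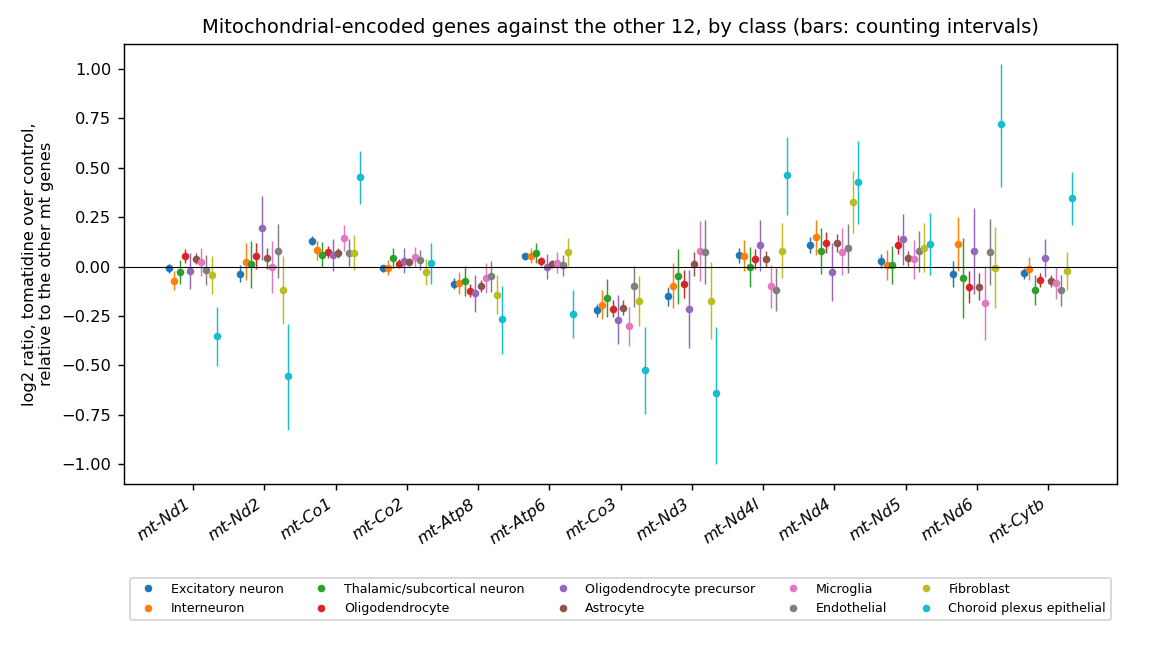
Log2 ratio of tomatidine over control of each mitochondrial-encoded gene against the sum of the other 12 (vertical axis), in 10 classes, with bars for 95% counting intervals. mt-Co3 lies below 0 in each of them, and its median over all 13 classes is −0.22.

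Genes around the respiratory chain were read from lists of related pathways. In CA1-like cells the 20 genes of the tricarboxylic acid cycle and pyruvate dehydrogenase had a median log2 ratio of −0.13, with 2 higher and 1 lower by the rule, and 14 glycolysis genes had −0.14, with 1 higher and 2 lower, beside 19.6% higher and 3.61% lower of all genes. In thalamic neuron-like cells those medians were −0.13 and −0.15. Mdh2, the mitochondrial malate dehydrogenase, was the lowest of the first list in CA1-like cells with −0.29, and Suclg2, a succinyl-CoA ligase subunit, the highest with 0.75. Aldoc, the aldolase typical of astrocytes, was the highest glycolysis gene with 0.72. Both medians lay near those of the nuclear members, which were −0.17 in CA1-like and −0.15 in thalamic neuron-like cells.

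Regulators of mitochondrial biogenesis and mitochondrial DNA maintenance had medians above 0. The 16 of them, with Ppargc1a, Nrf1 and Tfam, had medians of 0.06 in excitatory neuron-like and 0.10 in CA1-like cells, where 4 were higher and 1, Tfam, was lower (19.6% and 3.61% of all genes). All genes had medians of 0.04 and 0.06 there. Tfam packages mitochondrial DNA and had −0.31 there. Assembly factors outside the Ndufaf family, 37 genes such as Surf1 and Bcs1l, had medians of −0.00 in excitatory neuron-like, −0.02 in CA1-like and 0.09 in oligodendrocyte-like cells. Electron and inner membrane carriers, 23 genes, had −0.00, −0.06 and 0.08, with Slc25a5, an ADP/ATP carrier, lowest in CA1-like cells at −0.45. The 4 members with the NRF1 letters had log2 ratios in excitatory neuron-like cells of −0.13 for Atp5k, 0.06 for Cox6a1, −0.11 for Ndufa11 and −0.19 for Ndufaf4. None of them passed the rule in that class taken as a whole. By the rule Ndufaf4 was lower in its deep layer-like subtype (−0.27), Cox6a1 was higher in fibroblast-like cells (0.28) and Atp5k was lower in 1 class.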

How the data were processed

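Libraries from a 10x assay of fixed hippocampal cells, 1 per group and each from 4 pooled mice, were analysed. The authors mapped their reads against mm10. What they deposited are counts, whole UMIs per gene and cell, filtered for cells and not normalized. The submitters' notes name Cell Ranger 8.0.0 and the file headers cellranger 7.1.0. Cells with at least 500 UMIs, over 250 genes, complexity above 0.8 and under 20% mitochondrial UMIs were kept. Scrublet in scanpy 1.11.5 called 0 and 2 doublets, so cells in the top 2% of scores (308 and 295) were taken out instead, leaving 29618 of 31097 cells. Clusters came from Seurat 5.3.0 (R 4.3.3) after RPCA integration (2000 variable genes, 30 components, resolution 0.8), leaving out 220 genes that are reported as results. A cluster was named for the class that led in its 10 top genes and in the share of markers raised 2-fold in at least 10% of cells, with at least 3 such markers, under a rule written after the clusters were seen.

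UMIs were summed per library and class. Log2 CPM ratios have exact conditional binomial intervals, and shares exact Clopper-Pearson ones. Both are at 95% and cover counting error alone. A count of 0 allows up to 3 counts. The members, gene lists and markers were chosen with earlier results of these data known. Genes named are the mitochondrial-encoded members, the isoform pairs, up to 3 members with the largest ratio in each direction and class, the 10 nuclear members with the strongest class pattern, the member with the most UMIs per complex, and the extremes of each related list. Other members are named where a count of 5 or fewer or a motif match singles them out, and these and the largest subunits among CA1-like calls were chosen after their values were seen. Cytosolic ribosomal protein genes are not used here. Coordinates are those of GENCODE vM21 for GRCm38, and promoters those of RefSeq for GRCm38.p6. Scaling by TMM used edgeR 4.0.16 for factors alone. The alternatives changed the cell filter, doublet removal, integration, resolution, class definition, scaling, weight of cells, minimum UMIs and fold, and cells of 5000 to 20000 UMIs were added after the data were seen. The ratio, interval and call were tested on simulated data. Scripts ran in Python 3.11.15 (numpy 2.4.6, pandas 2.3.3, scipy 1.17.1, matplotlib 3.10.9).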

Additional observations from a re-analysis of the deposited data

Results flagged for a closer look

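The median log2 ratio of tomatidine over control differed in direction between excitatory neuron-like and oligodendrocyte-like cells for the nuclear members. The medians were −0.09 and 0.07, a difference of −0.16, beside 0.04 and 0.06 over all genes. With TMM scaling the nuclear medians were −0.14 and 0.00624. For the mitochondrial-encoded members the median did so between oligodendrocyte precursor-like and astrocyte-like cells, at 0.22 and −0.14, a difference of 0.35. With cells classed by a marker gate the median of oligodendrocyte precursor-like cells turned to −0.0574. With 1 library per group neither difference was tested.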

How the results depend on the processing

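No paired analysis was possible because each group has 1 library. Each value was compared with its value under each alternative separately. For main values, 160 such comparisons stayed within the main interval, or within 1.5-fold for counts, 33 moved and 6 were reversed. For further values, of neuronal subtypes, smaller classes, call counts and summed levels, 735 stayed, 477 moved and 7 were reversed. A reversal was counted only where the main interval excluded 0. Changes of sign near 0 can thus be among those that stayed. The nuclear median of endothelial-like cells, for example, kept its sign in 11 of 13 settings. Below, values are median log2 ratios unless called counts of members, and the cause of each change was not tested. With at most 6000 genes and under 10% mitochondrial UMIs per cell, nuclear medians were 0.0766 in astrocyte-like, −0.0791 in endothelial-like, −0.19 in interneuron-like and 0.0462 in oligodendrocyte-like cells. Mitochondrial medians were then −0.0238 in astrocyte-like and −0.39 in interneuron-like cells, and reversed to −0.0457 in excitatory neuron-like, −0.26 in CA1-like and −0.24 in deep layer-like cells, with 3 members past the rule in excitatory neuron-like cells. With all deposited cells, the mitochondrial median reversed to 0.00698 in endothelial-like and 0.0624 in interneuron-like cells, nuclear medians were −0.0473 in interneuron-like and 0.0335 in oligodendrocyte-like cells, and counts were 2 in excitatory neuron-like and 11 in CA1-like cells. At resolution 1.5 astrocyte-like cells had a nuclear median of 0.0208 and a mitochondrial one of −0.11, and at 0.3 the count in excitatory neuron-like cells was 3. With the marker gate nuclear medians were −0.0647 in astrocyte-like, −0.0222 in excitatory neuron-like and −0.0515 in interneuron-like cells, and mitochondrial medians reversed to 0.16 in interneuron-like and −0.0574 in oligodendrocyte precursor-like cells.

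With cells of 5000 to 20000 UMIs, chosen after seeing the data, nuclear medians were 0.0583 in astrocyte-like and −0.16 in interneuron-like cells. Mitochondrial medians were −0.26 in endothelial-like and −0.48 in interneuron-like cells, and reversed to −0.0325 in excitatory neuron-like, −0.37 in CA1-like and −0.23 in deep layer-like cells. With TMM scaling nuclear medians were −0.14 in excitatory neuron-like, −0.13 in interneuron-like, −0.0779 in microglia-like and 0.00624 in oligodendrocyte-like cells, and counts were 8 in excitatory neuron-like and 42 in CA1-like cells, against 5 and 22. With the mean over cells nuclear medians were −0.0735 in astrocyte-like, −0.12 in interneuron-like and 0.0249 in oligodendrocyte-like cells. Mitochondrial medians were −0.26 in interneuron-like cells and reversed to −0.00332 in excitatory neuron-like, −0.0462 in CA1-like and −0.0463 in deep layer-like cells. At 1.5-fold the counts were 0 and 1. Nuclear medians kept their sign in excitatory neuron-like cells over 13 of 13 settings, in CA1-like over 12 of 12, in interneuron-like over 13 of 13 and in oligodendrocyte-like over 13 of 13, and the mitochondrial median of astrocyte-like cells did over 13 of 13. Depth limits the rare isoforms in small classes: in mural-like cells a count of 0 allows up to 15.8 CPM in each library.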
